A study of Mus musculus with 6 samples.

Results

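The epidermis of mouse embryos that had lost both Sox4 and Sox11 (Sox4/11 dcKO, here dcKO) was compared with the epidermis of wild-type littermates on 2 arrays of the 6 in the series. The arrays were chosen by their genotype label. The other 4 arrays carried Sox4 cKO (2 arrays) and Sox11 cKO (2 arrays), each against wild type as well, and they entered here to estimate the spread and to set the loss of both genes against the loss of one. All samples were labelled embryonic day 16 and strain 129SvEx:C57BL/6. Per the study's methods the floxed alleles were deleted by Krt14-Cre, a recombinase active in basal keratinocytes, and the dorsal epidermis was peeled from the dermis with dispase. Cells outside the Krt14 lineage therefore kept both genes, and fewer cells of a type and less RNA per cell cannot be told apart in such bulk RNA. On array 1 dcKO RNA was labelled with Cy5 and wild-type RNA with Cy3, and on array 2 the dyes were swapped, with another pair of biological samples on each array. The labels do not state whether these samples came from single embryos or pools, or whether wild-type RNA was shared with the arrays of the single knockouts, so the p-values measure the spread between these arrays, which may be partly technical.

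SOX4 and SOX11 are transcription factors of the SoxC group, which also holds SOX12. They bind DNA through an HMG box and are known for keeping progenitor cells of many embryonic tissues immature and motile. Embryonic epidermis is built from a basal layer that expresses Krt5 and Krt14, suprabasal layers that express Krt1 and Krt10, and a transient outer periderm. Late in gestation its outer cells cornify: they crosslink proteins into an envelope, many of them encoded in the epidermal differentiation complex (EDC), extrude barrier lipids and later shed by proteolysis of their junctions. The description below is mostly of genes outside the EDC.

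Values are log2(dcKO/wild type) per probe. The fold change is the mean of both arrays on the log2 scale (n = 2), and the p-values are those of limma, adjusted over all 55681 probes. A probe "passed" at an adjusted p under 0.05 and was "called" if its absolute log2 fold change was also over 1.5, the threshold of the study's methods. The legend of the study's heat map of these arrays gives a fold change over 1.5, without log2. Signals are channel values after normalization in arbitrary units, and they set dcKO against wild type for a probe, never a probe against another. Between 39.5% and 43.6% of the gene spots per channel exceeded the background clearly on these arrays, with 0 saturated spots. Both channels of both arrays were alike in sex-linked transcripts: Ddx3y and Eif2s3y were well above background in all 4 channels and Xist in none. The epidermal label was borne out by 7 keratinocyte markers (Krt5, Krt14, Krt1, Krt10, Trp63, Perp and Dsp), all well above background in every channel. In limma's fit 0 of them passed, and 2 higher and 0 lower had an unadjusted p under 0.05. Of all 55681 probes 5506 had an unadjusted p under 0.05 in this fit, higher and lower together. Leaving out a dcKO array keeps 1 dcKO array in the fit, whose error is then taken from the other genotypes. Leaving out either array of a single knockout gives the same fit of dcKO against wild type. The remaining array then serves only its own genotype, so these are not separate checks. Of the 68 genes and probes that passed and were named by a fixed rule, 44 still passed without array 2 and 34 without array 1. The 20 genes called higher and 16 called lower that are described one by one are marked where they did not.

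The targeted genes were examined first. Sox4 was lower in dcKO on all its probes. One probe (A_55_P2131899) had signals of 108 and 115 in wild type and 36.7 and 37.6 in dcKO, with neither dcKO value well above background. It was called lower, by 3.0-fold on these dim values (fitted log2 fold change −1.58, adjusted p = 0.00227). A brighter probe (A_55_P2121613) had signals of 618 and 565 in wild type and 319 and 349 in dcKO, a difference of −0.82 that did not pass (adjusted p = 0.0778). The brightest (A_55_P2121608), paired with Sox4 in the study's own probe table only, had signals of 1968 and 2123 in wild type and 956 and 1082 in dcKO and passed (−1.01, adjusted p = 0.0145). Wild-type and dcKO signals did not overlap on any of the 3, which is weak evidence with 2 values each and was not counted over all probes. Sox11 lay near background. On its first probe (A_55_P2094721) the signals were 45.9 and 43.8 in wild type and 23.7 and 31.4 in dcKO, where 1 wild-type value and no dcKO value was well above background. Against the dimmest signal detected that is 1.36-fold lower in dcKO, without passing (adjusted p = 0.198). It is no firm bound, since a wild-type value was not well above background either. The second Sox11 probe and the Sox12 probe were not well above background in any channel, so no fold is given (adjusted p = 0.517 and 0.929). The arrays could check the loss of Sox4 and not that of Sox11.

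Of all probes, 96 were called higher and 19 lower, 0.172% and 0.0341% of those tested. Outside the EDC 69 named genes were called by their brightest probe, 54 higher and 15 lower, and 6 more by a dimmer probe alone, which gives 58 higher and 17 lower. On the scanner software's own log ratios, which replace both the background correction and the normalization, limma called 0 probes (5750 had an unadjusted p under 0.05). The split depended on the scaling, with 52 higher and 27 lower by their brightest probe when arrays were centred on their median in place of loess. The number lower also rested on single arrays: it was 33 without either Sox4 cKO array (with 54 higher), 24 without the first dcKO array (47 higher) and 31 without the second (67 higher). Without the fold threshold 186 genes outside the EDC rose and 128 fell. Over all named genes, EDC included, 0.978% passed higher and 0.604% lower. All 60 probes called higher outside the EDC were above 0 on both arrays and all 18 called lower were below 0, which the threshold makes likely. The change exceeded 1.5 on both arrays for 34 of the 60 and 10 of the 18. Among named probes outside the EDC the mean of both arrays exceeded an absolute 1.5 for 103, against 6 for the same mean with the sign of array 2 turned, in which an equal genotype effect cancels.

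**Figure D1:**
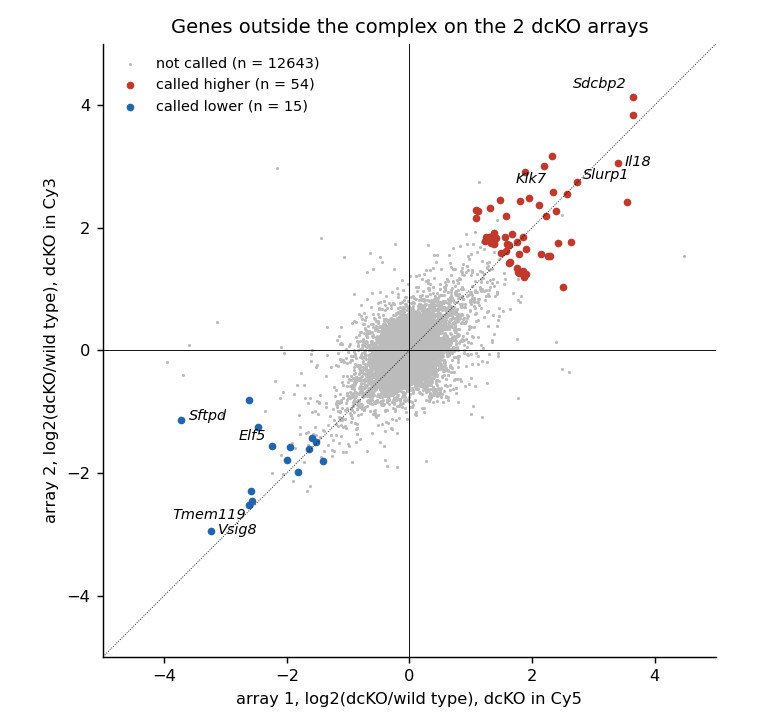
log2(dcKO/wild type) on array 1 (x axis, dcKO in Cy5) against array 2 (y axis, dcKO in Cy3) for the 12712 genes outside the EDC that had a value on both arrays and were well above background in a channel, 1 probe per gene. The 54 genes called higher (red) and the 15 called lower (blue) lie near the dotted line of equal values, except for a few such as Sftpd (−3.72 and −1.14), while the bulk of the genes (grey) lies around 0.

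The largest rises outside the EDC included genes of secreted and membrane proteins. Sdcbp2, the PDZ protein syntenin-2, had the largest difference. Its signals were 249.6 and 84.9 in wild type and 3123 and 1488 in dcKO, which is 3.89 ± 0.34 on the log2 scale (SD, n = 2, adjusted p = 1.03e-05). Tmem229b, a transmembrane protein, followed with signals of 321 and 96.2 in wild type and 4038 and 1381 in dcKO (3.75 ± 0.13, adjusted p = 1.27e-05). For both genes every dcKO value was over 10 times the wild-type value of the same array. Slurp1, a secreted Ly6-type protein whose loss causes a thickening of palm and sole skin, had signals of 322 and 115 in wild type and 2145 and 774 in dcKO and rose by 2.74 (adjusted p = 9.09e-05). Its relative Slurp2 rose by 2.20 (adjusted p = 0.0111), unequally on the arrays (2.63 and 1.77), and did not pass without array 1.

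Klk7, the chymotrypsin-like kallikrein that cuts corneodesmosomes during shedding, had signals of 123 and 71.2 in wild type and 623 and 427 in dcKO and rose by 2.46 (SE 0.13, adjusted p = 8.73e-05). Klk9, another kallikrein, rose by 1.51 (adjusted p = 0.00147). Hal, the histidine ammonia-lyase that makes urocanic acid in cornified cells, had signals of 1175 and 1022 in wild type and 5792 and 2976 in dcKO and rose by 1.92 (adjusted p = 0.0027). In Sox11 cKO its log2 fold change was 1.73, which did not pass (adjusted p = 0.0952). Gpat3, which starts the synthesis of glycerolipids, rose by 2.25 (2.12 and 2.38 on the arrays), and Cyp2b10, a cytochrome P450, by 2.20 (2.22 and 2.18).

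A cytokine and a growth factor were among the genes called higher. Il18, a cytokine of the interleukin 1 family, had signals of 153 and 91.8 in wild type and 1624 and 766 in dcKO and rose by 3.23 (SE 0.53, adjusted p = 0.0329). It did not pass without array 1 or without array 2. In the single knockouts it stood at −1.25 (Sox4 cKO, −0.01 and −2.48 on the arrays) and 1.08 (Sox11 cKO, 0.18 and 1.98). Neither passed, and each mean came mostly from 1 array. Btc, which encodes the EGF receptor ligand betacellulin, had signals of 84.8 and 45.8 in wild type and 445 and 220.2 in dcKO and rose by 2.33 (adjusted p = 0.00161). It was the only 1 of 13 genes of the EGF receptor family and its ligands to pass. Areg (−0.62, adjusted p = 0.161), Tgfa (0.25, adjusted p = 0.587) and Egfr (−0.10, adjusted p = 0.868) did not.

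Some enzymes that handle oxidants and heme rose. Hmox1, heme oxygenase 1, had signals of 482 and 406 in wild type and 2587 and 1366 in dcKO and rose on both its probes, by 2.09 (adjusted p = 0.00369) on the brighter and by 1.6 (adjusted p = 0.0078) on the other. Of the 12 genes of a stress and dissociation list on the array it was the only one to pass, and the immediate early genes Fos (0.22, adjusted p = 0.767) and Egr1 (−0.05, adjusted p = 0.939) did not. Sod3, the extracellular superoxide dismutase, rose by 1.96 (1.47 and 2.45 on the arrays, adjusted p = 0.00114). Srxn1, a sulfiredoxin that restores oxidized peroxiredoxins, was singled out after its values were seen. It rose by 1.85 (1.85 and 1.85, adjusted p = 0.00121). Against these, Gpx3, the secreted glutathione peroxidase, had signals of 16796 and 17739.5 in wild type and 2735 and 10149 in dcKO and fell by 1.71 on the log2 scale (adjusted p = 0.0183), unequally on the arrays (−2.62 and −0.81). Gpx3 did not pass without array 1.

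The other genes among the 20 with the largest rises were Lnx1, a ubiquitin ligase, Stk10, a serine/threonine kinase, Krt72, a keratin of the hair follicle's inner root sheath, Ncoa3, a coactivator of nuclear receptors, Nt5c3, a pyrimidine nucleotidase, Plcxd2, Gramd1c, a lipid transfer protein, and the uncharacterized 3300005D01Rik. Lnx1 rose on both its probes, by 2.75 and 1.98. Krt72 had signals of 117 and 61.4 in wild type and 697 and 359 in dcKO and rose by 2.56 (2.58 and 2.55 on the arrays, adjusted p = 9.92e-05). Nt5c3, with signals of 1333 and 624 in wild type and 4921 and 4679.7 in dcKO, rose by 2.40 (adjusted p = 0.00057). Stk10 (2.61), Ncoa3 (2.46), Plcxd2 (2.22), Gramd1c (2.12) and 3300005D01Rik (2.98) had adjusted p-values from 7.69e-05 to 0.00145. Each of these 8 genes rose by over 1.5 on both arrays.

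The remaining 38 genes called higher ranged from 1.51 to 1.91. Some are named here after their values were seen. Ecm1, a secreted matrix protein of differentiating keratinocytes (1.89), Mxd1, a MYC antagonist (1.70), Nlrp10, an inflammasome-type protein (1.62), Dusp14, a phosphatase (1.68), Ctsh, a lysosomal cathepsin (1.53), and Gba2, a glucosylceramidase (1.53), were among these log2 fold changes. Stfa2 (1.55) and Stfa2l1 (1.56), cysteine protease inhibitors of the stefin family, are close copies, so their probes may read both. In Sox11 cKO they stood at 1.69 and 1.65, which did not pass (adjusted p = 0.487 and 0.365). Of the 60 probes called higher, 5 were not well above background in wild type on either array. They were Tbc1d9 (at least 3.20-fold higher), Ucp1, the uncoupling protein of brown fat (at least 3.01-fold higher), Rhox10 (at least 2.98-fold higher), Mt4, a metallothionein of stratified epithelia (2.90-fold higher by its fitted value), and Krtap3-2, a keratin-associated protein of hair (at least 2.67-fold higher).

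**Figure D2:**
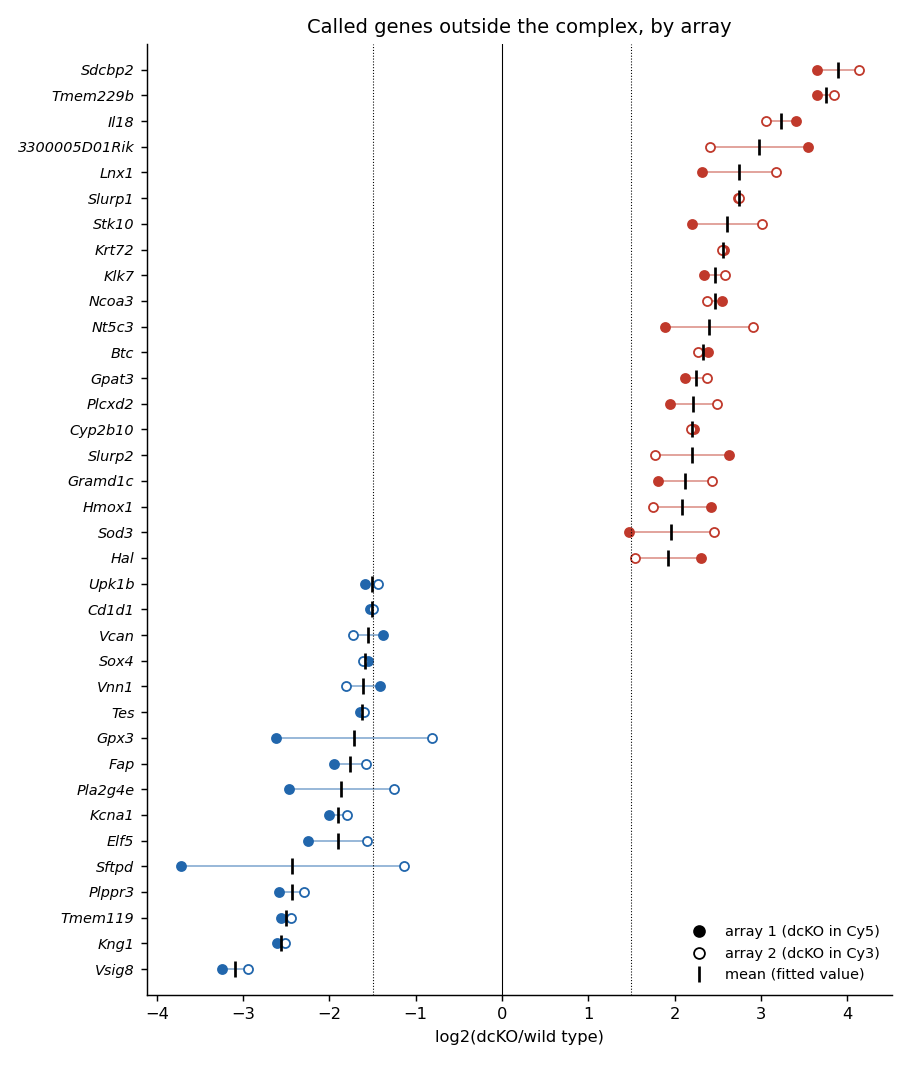
log2(dcKO/wild type) of the 20 genes outside the EDC called higher with the largest changes (red) and of 16 called lower (blue), with a filled point for array 1, an open point for array 2 and a bar for their mean, which is the fitted value. Dotted lines mark the threshold of 1.5 in either direction. Sdcbp2 and Tmem229b lie above 3.6 on both arrays, and Sftpd and Gpx3 differ most between the arrays.

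Among the 17 genes called lower, Vsig8 fell most. It encodes a membrane protein with immunoglobulin domains. Its signals were 3176 and 4166 in wild type and 335 and 543 in dcKO, a fall of 3.09 on the log2 scale (SE 0.33, adjusted p = 0.00441). Tmem119, a membrane protein best known as a marker of microglia, had signals of 463 and 705 in wild type and 78.3 and 129 in dcKO (−2.51, adjusted p = 9.92e-05). Elf5, an ETS transcription factor of epithelia, had signals of 645 and 840.2 in wild type and 136 and 284 in dcKO (−1.90, adjusted p = 0.000991). For these 3 genes wild-type and dcKO signals did not overlap, which the call makes likely.

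Several of the genes called lower are known from other tissues. Plppr3, a membrane protein best known from neurons, had signals of 224 and 208 in wild type and 37.5 and 42.3 in dcKO (−2.44, adjusted p = 0.000102), and Kcna1, a potassium channel, had signals of 267 and 275 in wild type and 66.7 and 79.2 in dcKO (−1.90, adjusted p = 0.0448). Kcna1 did not pass without either dcKO array. Sftpd, surfactant protein D, a collectin of mucosal surfaces, fell on both its probes (−2.43 and −1.96) but by unequal amounts on the arrays (−3.72 and −1.14 on the first probe and −2.66 and −1.27 on the second). Without array 1 the first probe did not pass. Kng1, which encodes kininogen, fell by 2.56 (adjusted p = 0.0103) with signals of 243 and 362 in wild type and 39.8 and 63.3 in dcKO. Of the 10 immune markers 0 passed in either direction, and 5 of them (Adgre1, Cd207, Cd3g, Ptprc and Lyz2) were not well above background in any channel. At an unadjusted p under 0.05 limma's fit held 1 higher and 0 lower of the 10.

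Enzymes and surface proteins made up most of the rest. Pla2g4e, a cytosolic phospholipase A2, fell by 1.86 (−2.47 and −1.26 on the arrays, adjusted p = 0.0152), and Vnn1, a pantetheinase, fell by 1.61 (−1.42 and −1.81, adjusted p = 0.00188). Upk1b, a tetraspanin of urothelial plaques, had signals of 215 and 319.7 in wild type and 71.6 and 118 in dcKO (−1.51, adjusted p = 0.0169). Cd1d1, which presents lipid antigens, was not well above background in dcKO and was 2.85-fold lower by its fitted value (adjusted p = 0.0106). It did not pass without array 1, nor did Pla2g4e, while Upk1b did not pass without array 2. B2m, which encodes the light chain shared by CD1D and class I histocompatibility molecules, had been listed as a reference gene and fell (−1.80 and −1.05 on the arrays, mean −1.42, adjusted p = 0.0178) with signals of 1838 and 1107 in wild type and 529 and 534 in dcKO. The remaining 9 reference genes did not pass, with Gapdh at −0.04, Hprt at 0.09 and Mrpl19 at 0.17.

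The promoters of the called genes were read for the core letters bound by SOX factors, ACAATG or ACAAAG, and for the AP-1 site TGANTCA, on either strand, in RefSeq windows of 300 bases (250 before to 50 after the start, assembly GRCm38.p6, the first window of a gene). The motifs can share end bases, but neither holds the other. Of the 58 genes called higher 47 had a window, of which 11 (23.4%) held a SOX core and 10 (21.3%) an AP-1 site. Of the 17 called lower 8 had a window, of which 4 held a SOX core and 0 an AP-1 site. Among the 16917 genes on the array with a window the shares were 25.3% and 7.19%, and among all 27025 genes with a window in the reference they were 28.8% and 7.93%. These are counts of letters with no test. The 5 promoters below, read up to the base before the start, belong to genes called higher that held AP-1 letters (Sdcbp2 and Srxn1) and to genes called lower that held a SOX core (Vsig8, Plppr3 and Elf5), with the matching letters in capitals.
Sdcbp2 (GRCm38.p6, chr2:151572373-151572622, + strand): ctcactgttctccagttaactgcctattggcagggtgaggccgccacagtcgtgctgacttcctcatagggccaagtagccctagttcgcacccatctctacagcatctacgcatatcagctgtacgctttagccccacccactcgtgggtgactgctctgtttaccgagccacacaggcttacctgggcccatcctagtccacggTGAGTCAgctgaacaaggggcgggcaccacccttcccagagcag
Srxn1 (GRCm38.p6, chr2:152105274-152105523, + strand): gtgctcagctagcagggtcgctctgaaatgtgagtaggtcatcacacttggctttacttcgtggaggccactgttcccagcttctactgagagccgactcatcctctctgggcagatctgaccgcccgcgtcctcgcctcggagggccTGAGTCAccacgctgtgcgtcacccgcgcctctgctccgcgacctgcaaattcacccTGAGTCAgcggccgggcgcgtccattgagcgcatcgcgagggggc
Vsig8 (GRCm38.p6, chr1:172559656-172559905, + strand): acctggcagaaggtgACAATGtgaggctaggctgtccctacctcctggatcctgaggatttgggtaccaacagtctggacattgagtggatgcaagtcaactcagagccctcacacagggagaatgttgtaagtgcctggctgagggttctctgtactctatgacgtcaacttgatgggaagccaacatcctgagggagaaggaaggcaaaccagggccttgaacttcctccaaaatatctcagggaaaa
Plppr3 (GRCm38.p6, chr10:79874635-79874884, - strand): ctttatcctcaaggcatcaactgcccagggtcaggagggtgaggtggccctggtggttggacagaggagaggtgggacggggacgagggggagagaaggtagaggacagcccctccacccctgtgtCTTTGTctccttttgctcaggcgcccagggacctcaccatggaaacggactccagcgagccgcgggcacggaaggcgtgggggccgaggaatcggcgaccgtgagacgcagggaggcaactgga
Elf5 (GRCm38.p6, chr2:103411848-103412097, + strand): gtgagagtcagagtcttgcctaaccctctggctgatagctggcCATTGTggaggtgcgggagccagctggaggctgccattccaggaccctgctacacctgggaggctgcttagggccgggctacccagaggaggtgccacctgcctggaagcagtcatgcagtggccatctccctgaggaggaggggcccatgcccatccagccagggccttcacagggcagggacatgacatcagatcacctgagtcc

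Gene lists of epidermal function were then described by their counts, against the 0.978% of named genes that passed higher, the 0.604% that passed lower and a median of −0.01 over all of them. Counts at an unadjusted p under 0.05 stand against 5506 of all 55681 probes, so a few in a list are no result by themselves. In limma's fit the keratins were described by layer first. In the basal layer Krt5 (0.06, adjusted p = 0.939), Krt14 (0.26, adjusted p = 0.581) and Krt15 (−0.34, adjusted p = 0.43) did not pass. Of 6 suprabasal keratins Krt80 alone rose (0.73, adjusted p = 0.0409), but did not pass when any 1 of the 6 arrays was left out, and Krt1 (0.64, adjusted p = 0.489) and Krt10 (0.63, adjusted p = 0.468) were above 0 on both arrays without passing. Of 10 keratins of periderm, simple and stressed epithelia 3 fell and 1 rose, with a list median of −0.89. Krt4, a keratin of the periderm, had signals of 135 and 192 in wild type and 55.8 and 58.1 in dcKO (−1.5, adjusted p = 0.00177). Krt19, with signals of 1478 and 1975 in wild type and 508 and 826 in dcKO, fell by 1.40 (adjusted p = 0.0183). Krt17, a keratin of periderm, hair buds and wounds, had signals of 4159 and 4457 in wild type and 1967 and 1417 in dcKO (−1.37, adjusted p = 0.0051). Krt16, a keratin of stressed epidermis, went the other way, with signals of 1338 and 841 in wild type and 4683 and 1449 in dcKO (1.30, adjusted p = 0.048) and values of 1.81 and 0.78 on the arrays. Krt16 did not pass without array 1 or when a Sox11 cKO array was left out. Krt6a (−0.97, adjusted p = 0.211) and Krt8 (−0.72, adjusted p = 0.254) did not pass. Without array 1 there were 2 falls and 0 rises on this list, and without array 2 1 fall and 1 rise.

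Genes of the lipid barrier and of the cornified envelope outside the EDC rose where they passed. Of 36 enzymes and transporters of barrier lipids 5 rose and 0 fell, with a median of 0.33. They were Smpd3, a sphingomyelinase (1.1, adjusted p = 0.021), Asah1, the lysosomal ceramidase (1.07, adjusted p = 0.0078), Sdr9c7, a dehydrogenase needed for the lipid envelope (0.95, adjusted p = 0.0167), the lipase Lipk (0.93, adjusted p = 0.0329) and Abca12, which loads lipids into lamellar granules (0.84, adjusted p = 0.0216). Abca12 had signals of 1452 and 1053 in wild type and 2494 and 1959 in dcKO. The median of the list was 0.03 in Sox4 cKO and 0.28 in Sox11 cKO, against 0.33 in dcKO. At an unadjusted p under 0.05 the list held 19 higher and 0 lower in dcKO. The count rested on both arrays: without array 1 0 genes of the list passed and without array 2 1. Alox12b (0.45, adjusted p = 0.396) and Cers3 (0.54, adjusted p = 0.195) did not pass. Of 24 genes of envelope crosslinking and filaggrin processing 4 rose and 0 fell, namely Klk7, Klk9, Blmh, the protease that finishes the breakdown of filaggrin (1.15, adjusted p = 0.0158), and Prss8, a membrane protease (0.99, adjusted p = 0.0114). Blmh was bright, with signals of 8252 and 5155 in wild type and 15192 and 13702 in dcKO. Tgm1 (0.20, adjusted p = 0.662), Casp14 (0.64, adjusted p = 0.206) and Spink5 (0.54, adjusted p = 0.533) did not pass. Without array 1 and without array 2 2 genes of this list passed.

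Of 17 alarmins and antimicrobial genes 4 rose and 0 fell, all of them of the interleukin 1 family: Il18, Il1f8 (IL-36β; 1.65, adjusted p = 0.00994), Il1f9 (IL-36γ; 1.44, adjusted p = 0.0136) and Il1f5 (the IL-36 receptor antagonist; 1.06, adjusted p = 0.0248). Il1f5 had signals of 2674 and 2004 in wild type and 4973 and 4679 in dcKO. Without array 1 0 genes of the list passed and without array 2 2. Il1a (0.51, adjusted p = 0.188) did not pass, and Il33 was not well above background. Of 22 serpins of clade B and cystatins only Stfa2 rose (1.55, adjusted p = 0.0479), and 0 genes of the list passed without either dcKO array, against 3 without either Sox11 cKO array. The list had a median of 0.47 and 15 members above 0 on both arrays. In Sox4 cKO its median was 0.22 and in Sox11 cKO 0.42. Stfa2 stood at 1.69 in Sox11 cKO (0.61 and 2.78 on the arrays) and 0.80 in Sox4 cKO, and neither passed. The limma test of dcKO against Sox11 cKO did not pass for Stfa2 (adjusted p = 0.966). In limma's fit 0 of 16 desmosomal genes and 0 of 18 genes of tight and gap junctions passed, and at an unadjusted p under 0.05 there were 4 higher and 2 lower and 4 higher and 1 lower. Their medians were 0.04 and 0.18, and Cdsn, corneodesmosin, reached 1.77 (adjusted p = 0.169) and passed when a Sox11 cKO array was left out.

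Of 31 epidermal transcription factors 2 rose and 1, Elf5, fell. Maf, a regulator of late differentiation, had signals of 102 and 84.1 in wild type and 353 and 249.9 in dcKO (1.68, adjusted p = 0.00145). Prdm1, the repressor BLIMP1 of the granular layer, had signals of 709.7 and 517 in wild type and 1440.3 and 968 in dcKO (0.96, adjusted p = 0.0426) and did not pass without either dcKO array. Trp63 (−0.10, adjusted p = 0.867), Klf4 (0.18, adjusted p = 0.824) and Grhl3 (−0.13, adjusted p = 0.85) did not pass. In the Sox family 0 of 16 genes passed in limma's fit by their brightest probe named through RefSeq, while both other Sox4 probes described above passed lower. By those 16 probes there were 1 higher and 4 lower at an unadjusted p under 0.05.

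Actin genes that passed had fallen. Of 47 actin and focal adhesion genes 7 fell and 0 rose, with a list median of −0.06. Tes, the LIM protein testin of focal adhesions, was the one called, with signals of 384 and 360.4 in wild type and 123 and 119 in dcKO (−1.62, adjusted p = 0.00102). Tmsb10, which sequesters actin monomers, had signals of 2353 and 2728 in wild type and 1026 and 1042 in dcKO (−1.29, adjusted p = 0.00368). Marcksl1, a membrane linker of actin, had signals of 783 and 665 in wild type and 320.2 and 318 in dcKO (−1.18, adjusted p = 0.0078). Fblim1, a filamin-binding adapter (−1.09, adjusted p = 0.0111), Rhoc, a GTPase of motile cells (−1.03, adjusted p = 0.0311), and Fscn1, the actin-bundling protein fascin (−0.88, adjusted p = 0.0193), also fell, as did Tmsb4x, a relative of Tmsb10 that is named after its values were seen (−0.72, adjusted p = 0.0444). Without array 1 3 of the list passed lower and without array 2 4. The study followed members of this list, Fblim1 and Fscn1 among them, with these arrays in view, so its direction is not independent evidence. Actb was at 0.00 with opposite signs on the arrays, and Flna did not pass (−0.40, adjusted p = 0.327).

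Of 27 genes of basement membrane, hemidesmosomes and integrins 3 fell and 0 rose. They were Col4a1 (signals of 253 and 218 in wild type and 105 and 71.0 in dcKO; −1.44, adjusted p = 0.0078), Col4a2, its partner chain in collagen IV (−0.96, adjusted p = 0.0375), and Pxdn, the peroxidase that crosslinks collagen IV (−1.18, adjusted p = 0.00533). The hemidesmosome genes Itga6 (0.01, adjusted p = 0.988), Itgb4 (−0.10, adjusted p = 0.877) and Col17a1 (0.02, adjusted p = 0.98) did not pass. Without array 1 2 of the list passed lower and without array 2 1. Col4a2 did not pass when any 1 of the dcKO and Sox11 cKO arrays was left out. Cells of the dermis express collagen IV genes too.

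Tead2, a transcription factor of the Hippo pathway, had signals of 224 and 218 in wild type and 125 and 117 in dcKO and fell by 0.87 (adjusted p = 0.0327), the only 1 of 14 genes of its list to pass. Without either dcKO array it did not pass. Of 12 genes of microtubules and neuronal SoxC targets 2 rose, Tubb2a (0.96, adjusted p = 0.0145) and Map2 (0.86, adjusted p = 0.0404), and 0 fell, with 0 left without either dcKO array. Tubb3 (−0.04, adjusted p = 0.957) and Stmn1 (−0.52, adjusted p = 0.156) did not pass, and Dcx was not well above background. Of 23 hair bud and Wnt, Shh and Edar genes Sostdc1, a Wnt and BMP antagonist, fell (−0.79, adjusted p = 0.0337). It did not pass without either dcKO array. Smo of the hair bud list was counted by its brighter probe (0.01, adjusted p = 0.992), while a dimmer one passed lower (−1.10, adjusted p = 0.0103). Of 19 Notch genes and 25 proliferation genes 0 passed in limma's fit, with 0 higher and 3 lower and 0 higher and 2 lower at an unadjusted p under 0.05. Their medians were −0.06 and −0.15, with Notch1 at −0.05, Mki67 at −0.15 and Ccnd1 at −0.77 (adjusted p = 0.106).

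**Figure D3:**
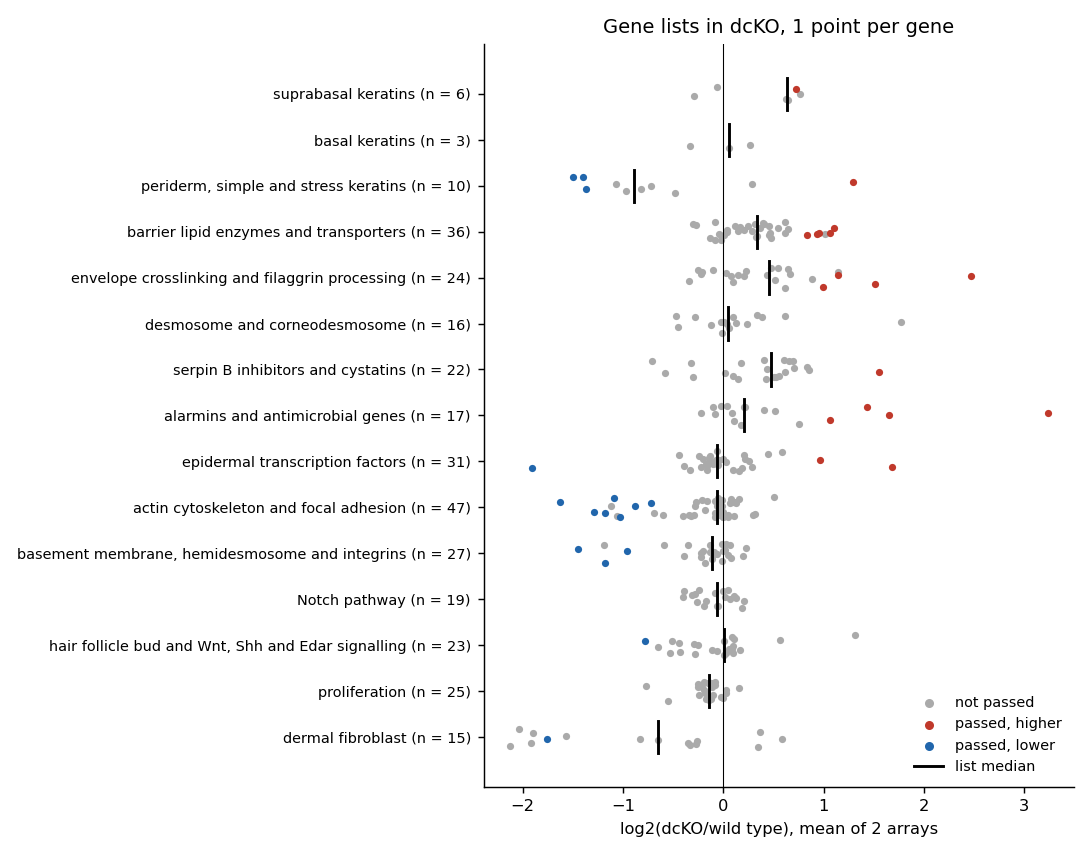
log2(dcKO/wild type), the mean of 2 arrays, of the genes of 15 lists (1 point per gene, number of genes in brackets), with genes that passed higher in red, those that passed lower in blue and the list median as a bar. The passed genes of barrier lipid, envelope and alarmin lists lie to the right of 0, those of the actin and basement membrane lists to the left, and 6 dermal fibroblast markers lie below −1.5.

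Markers of other cell types were read beside these results. Of 15 dermal fibroblast markers 11 were lower and 3 higher on both arrays, and their median was −0.65. Only Fap, the fibroblast activation protein, passed (signals of 759 and 944 in wild type and 198 and 316 in dcKO; −1.76, adjusted p = 0.00194). Col1a1 (−1.92), Col1a2 (−2.03), Col3a1 (−2.12), Lum (−1.89) and Twist2 (−1.57) were below −1 on both arrays and did not pass (adjusted p from 0.472 to 0.528). At an unadjusted p under 0.05 the list held 2 higher and 7 lower. Without either Sox4 cKO array, 4 of the list passed lower. Fitted on the 2 dcKO arrays alone, 7 of the 15 passed lower, where 0.8% of all named genes did, with adjusted p-values down to 3.42e-05 for Col3a1. Dcn, Thy1 and Postn, markers of the same cells, were above 0 on both arrays (0.35, 0.37 and 0.58). The summed signal of the list was 11055 to 14757 in wild type and 9936 to 11104 in dcKO. Dcn alone gave 5724 and 5649 of it in wild type and 7542 and 6966 in dcKO, so the sum says little of the dimmer probes. Dpt and Prrx1 were not well above background in any channel. In Sox4 cKO, against its own wild type, the median of the list was −0.47, and in Sox11 cKO 0.06.

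Vcan, the matrix proteoglycan versican, fell (signals of 97.8 and 147 in wild type and 37.7 and 44.2 in dcKO; −1.55, adjusted p = 0.0219), and so did Fap, Col4a1 and Col4a2. Vcan did not pass without array 1, and its other probes stood at −0.30 and 0.14, the latter not well above background. The part of dermal cells in these values was not tested. The lists of endothelium, immune cells, melanocytes, red blood cells, skeletal muscle, Schwann cells and Merkel cells held 0 genes that passed in limma's fit and 3 with an unadjusted p under 0.05, with medians from −0.35 to 0.19. The red blood cell list moved apart on the 2 arrays, with medians of −0.28 and 0.84.

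**Figure D4:**
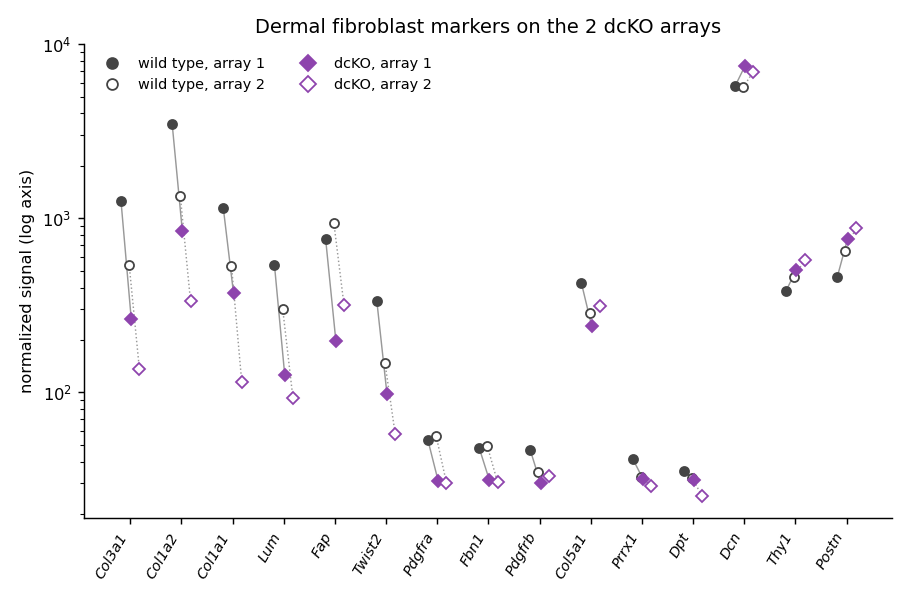
Normalized signal (log axis, arbitrary units) of the 15 dermal fibroblast markers in wild type (circles) and dcKO (diamonds) on array 1 (filled) and array 2 (open), ordered by log2 fold change, with a line from the wild-type to the dcKO value of the same array. Col3a1, Col1a2, Col1a1, Lum, Fap and Twist2 lie lower in dcKO on both arrays, and Dcn, Thy1 and Postn do not.

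To ask which dcKO values differed from those after the loss of 1 gene, both differences were tested in the same model over all probes. Against Sox4 cKO 81 probes differed (0.145% of those tested) and against Sox11 cKO 89 (0.16%). Of the 60 probes called higher outside the EDC 31 differed from Sox4 cKO, 28 from Sox11 cKO, 24 from both and 25 from neither. Their median log2 fold change was 1.77 in dcKO. In the Sox4 cKO it was 0.04, and 0.18 with Sox11 lost. The first was fixed by the threshold, and all 3 are a description. Sdcbp2 stood at 0.03 and 0.19 in the single knockouts, Ncoa3 at −0.06 and −0.01, and Klk7 at 0.41 and 0.05, each differing from dcKO in both tests. Slurp2, Il18 and Hal did not pass either test.

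Of the 18 probes called lower 7 differed from Sox4 cKO, 10 from Sox11 cKO and 5 from both, with medians of −1.88 in dcKO and −0.14 and 0.17 in the Sox4 and Sox11 single knockouts. Vsig8, Tmem119 and Vnn1 were among those that differed from both. Plppr3, Tes and the Sox4 probe differed from Sox11 cKO and did not pass against Sox4 cKO, in which they had fallen too (Plppr3 −1.6, Tes −1.53 and Sox4 −1.96). For Tes dcKO minus Sox4 cKO was −0.09 on the log2 scale (adjusted p = 0.98). Elf5 and Upk1b differed from Sox4 cKO and did not pass against Sox11 cKO. Krt4 differed from Sox4 cKO, where it was above 0 (0.98), and was near its dcKO value in Sox11 cKO (−1.47; test against dcKO, adjusted p = 0.993). The other actin and basement membrane genes named here passed no test against Sox4 cKO, where Tmsb10 stood at −1.13, Fscn1 at −0.76 and Col4a1 at −1.09. Neither did Tead2 of the Hippo list, which stood at −0.92 there.

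**Figure D5:**
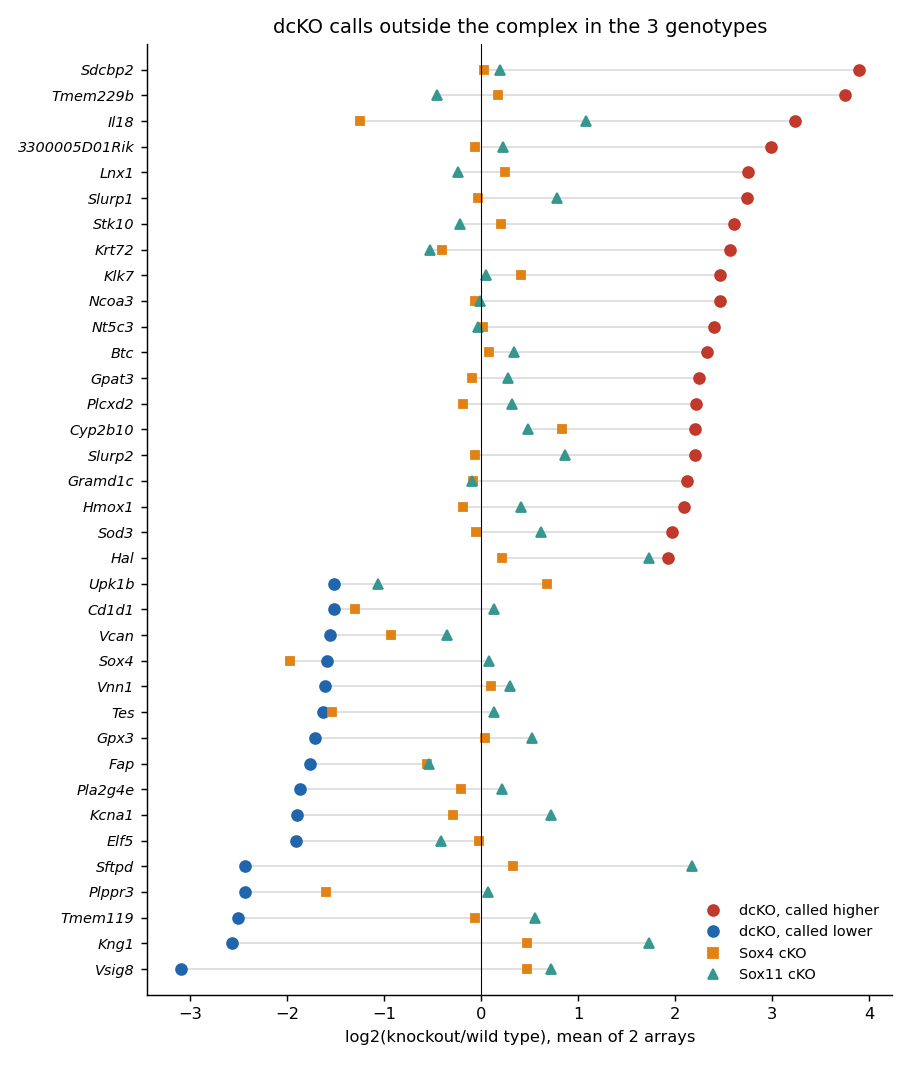
log2(knockout/wild type), the mean of 2 arrays per genotype, of the 20 genes outside the EDC called higher in dcKO with the largest changes and of 16 called lower, in dcKO (red or blue circles), Sox4 cKO (orange squares) and Sox11 cKO (green triangles). Most single-knockout values lie nearer 0 than the dcKO values. Il18, Plppr3, Tes, Sox4 and Cd1d1 lie below −1 in Sox4 cKO, and Hal (1.73), Kng1 (1.73) and Sftpd (2.17) are high in Sox11 cKO. Some of these means join unequal arrays, namely Il18 (−0.01 and −2.48) and Cd1d1 (−0.70 and −1.90) in Sox4 cKO. Kng1 (0.74 and 2.72) and Sftpd (0.74 and 3.60) do so in Sox11 cKO.

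Probes of 1 gene did not always move together. Of the called genes outside the EDC 17 had several probes. Hmox1, Lnx1 and Sftpd were called on 2 probes, and Esyt3, Gas7, Atp13a4 and Mxd1 passed on 2. For Ncoa3 a second probe well above background was at −0.20 (adjusted p = 0.656), and for Sun1, a protein of the nuclear envelope called at 1.91, at 0.01. Ecm1 was called on 1 probe (1.89) and at 0.32 on another, and Cpne1 at 1.55 and 0.30. For these genes the call holds for the probe given. Of the genes called lower, Kng1 had a second probe not well above background, and Cd1d1 and Plppr3 had second probes, not well above background in dcKO, with fitted log2 fold changes of −0.40 and −0.31 that did not pass. Among list genes that passed without a call, Prss8 had a second probe at 0.53 (adjusted p = 0.179) and Rhoc at −0.74 (adjusted p = 0.101). Asah1, Pxdn, Map2, Tead2 and Sostdc1 passed on 2 probes.

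Within the EDC 21 of 67 genes were called on any probe, 20 higher (1.66 to 4.63) and 1, Prr9, lower (−1.52). By their brightest probe 19 were called higher and 1 lower, against 73 and 16 of all 21371 named genes, EDC included. Lce1b (4.63), 2310050C09Rik (4.31) and Lce1m (4.18) had the largest changes. A probe that the study's table names Flg, for filaggrin, has no name in the reference used here and rose by 4.66. It was 1 of 13 called probes with no gene name here, all higher.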

How the data were processed

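Epidermal RNA of 6 knockout and wild-type pairs was hybridised to 6 two-colour Agilent mouse arrays on 1 slide, 2 arrays per genotype with the dyes swapped. Grouping followed the labels. The authors extracted spot intensities with Agilent Feature Extraction 11.0.1.1, and the deposited scanner files hold the intensity and background of each dye, a log10 ratio (red over green) and flags. The deposited series table holds the authors' log2 ratios, which matched the log2 ratios computed here (slope 1.00, r at least 0.9999 on the dcKO arrays, column medians of 0.000763 and −0.00497), so their scale, centring and direction (knockout over wild type) are known. The methods name limma (3.5 in the submitters' processing notes), normexp, loess and ComBat for colour.

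Here limma 3.58.1 in R 4.3.3 corrected the background of median signals (normexp, offset 16), normalized each array by loess without control and outlier spots, dropped control spots, left out outlier spots (183 and 200 on the dcKO arrays) and averaged spots of a probe. The model held 1 coefficient per genotype and 1 for dye over all 6 arrays, with a two-sided moderated test and Benjamini-Hochberg adjustment. Replicate numbers coincide with dye orientation, and same-numbered arrays of different genotypes deviated together (r = 0.26, 0.31 and 0.33), so the dye coefficient is also the replicate block. Channel signals were also scaled between arrays (Aquantile), and where 1 genotype was not well above background a fold is given as a bound over the dimmest signal detected. For Sox4, Cd1d1 and Mt4 the dim signals were not below that one, so their folds are the fitted values and not bounds. The other bounds are therefore approximate, and that of Sox11 also rests on a wild-type value not well above background. Arrays give no read depth, so their number limits the precision.

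Of 55681 probes, 28348 were named as 21371 genes through the accessions of a RefSeq table (GRCm38.p6) and 27333 were not. For genes with more than 1 probe the brightest stood for the gene. The EDC was taken as the RefSeq genes from S100a10 to S100a1. The text names Sox4, Sox11, Sox12, the genes outside the EDC called lower (1 is not reported here), the 20 called higher with the largest change, up to 6 passed and 3 defining members per list, and 3 genes of the EDC. The members and lists were chosen with earlier results of these data known. Alternatives covered the background, dye, scaling, dim probes, the arrays in the fit and each array left out. The fits were tested on simulated data. The authors' lists of changed genes were not used.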

Additional observations from a re-analysis of the deposited data

Results flagged for a closer look

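Of the 68 named genes and probes that passed in dcKO, 24 differed from Sox4 cKO and 26 from Sox11 cKO by limma's test of the difference itself (adjusted p under 0.05 over all probes), 17 of them from both, while 35 passed neither test. Values below are differences of log2 fold changes, dcKO minus the single knockout, with Sox4 cKO given before Sox11 cKO.

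Genes above both single knockouts were led by Tmem229b and Sdcbp2. The pairs of differences were Sdcbp2 (3.86 and 3.70), Tmem229b (3.57 and 4.21), 3300005D01Rik (3.05 and 2.76), Lnx1 (2.50 and 2.98) and Krt72 (2.97 and 3.09). Enzymes and regulators followed, namely Stk10 (2.40 and 2.82), Ncoa3 (2.52 and 2.47), Nt5c3 (2.38 and 2.42), Gpat3 (2.34 and 1.97), Plcxd2 (2.41 and 1.90) and Gramd1c (2.20 and 2.21). The secreted protein Slurp1 and the kallikreins stood at Slurp1 (2.78 and 1.96), Klk7 (2.06 and 2.42) and Klk9 (1.40 and 1.64). Genes below both were Vsig8 (−3.56 and −3.81), Tmem119 (−2.44 and −3.06) and Vnn1 (−1.71 and −1.91).

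Against Sox4 cKO alone the test passed for Btc (2.25), Hmox1 (2.28) and Sod3 (2.01), which were higher in dcKO, and for Krt4 (−2.48), Upk1b (−2.19), Krt19 (−2.09) and Elf5 (−1.88), which were lower. Against Sox11 cKO alone it passed for Cyp2b10 (1.72), Maf (1.47) and Asah1 (1.33), which were higher, and for Sftpd (−4.60), Kng1 (−4.29), Plppr3 (−2.51), B2m (−2.08), Tes (−1.76) and Sox4 (−1.66), which were lower. The Sftpd value is that of its brighter probe, and its other probe differed from both single knockouts (−2.19 and −3.65, adjusted p = 0.0152 and 0.000626). Kng1 and Sftpd were above wild type in Sox11 cKO (log2 fold change 1.73 and 2.17, neither of which passed), so part of their difference lay there. Both were unequal on the Sox11 cKO arrays (0.74 and 2.72 for Kng1, 0.74 and 3.60 for Sftpd).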

How the results depend on the processing

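All 68 named genes and probes that passed kept their direction under the 10 alternative settings and with each array left out. The number that still passed was 0 with the scanner software's log ratios, 49 with no replicate block, 65 with median centring and 65 with only the 2 dcKO arrays in the fit, 64 without dim probes and 68 under the other settings. It was 34 and 44 without the first and the second dcKO array. Without the replicate block (no dye coefficient) 103 probes were called, all among the 115, 270 passed against 462, and 46 and 57 differed from Sox4 cKO and Sox11 cKO against 81 and 89. With the scanner software's log ratios limma called 0 probes, 0 genes outside the EDC, and 0 probes passed, 0 differed from Sox4 cKO and 0 from Sox11 cKO, while 5750 probes had an unadjusted p under 0.05. An offset of 50 called 45 genes outside the EDC against 69, passed 1376 probes, and left 277 and 322 differing from Sox4 cKO and Sox11 cKO. Without background subtraction these counts were 1098, 219 and 258, and with ComBat in place of the dye coefficient 3632, 369 and 690, of which 49.8% of those passed were higher against 63%. With only the 2 dcKO arrays in the fit 58 genes outside the EDC were called higher and 33 lower. Median centring gave 283 probes passed higher and 243 lower. Other settings called 81 to 137 probes. Values from the series table called the same 115, and Aquantile scaling leaves ratios unchanged by construction. Leaving out 1 array gave 121 to 167 called probes, 71 to 98 called genes outside the EDC and 165 to 524 passed probes. Without the first dcKO array 80 of the 115 remained called and without the second 102. The differences numbered 43 to 131 (Sox4 cKO) and 43 to 154 (Sox11 cKO). List medians kept their sign except for basal keratins, epidermal transcription factors, hair follicle bud and Wnt, Shh and Edar signalling, endothelium, melanocyte, red blood cell, skeletal muscle, Schwann cell and nerve, Merkel cell. Why the settings differ was not tested. Probes not well above background limit Sox11, Sox12 and Xist to rough values or none.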

Other observations

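The 13 called probes without a gene name were all higher in dcKO, with log2 fold changes from 1.58 to 4.66. Next to the probe the study's table names Flg (4.5 and 4.83 on the arrays), 2 probes of 1 transcript rose by 4.43 and 3.93. Another pair of probes, both to 1 transcribed region outside named genes, was called on the strength of array 1, with log2 values of 3.41 and 0.22 for A_30_P01019583 and 2.99 and 0.23 for A_30_P01026028. On the other 11 both arrays were above 1.2.

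Of 25 proliferation genes 0 passed in limma's fit (unadjusted p under 0.05: 0 higher and 2 lower). On both arrays 15 of them were below 0 and 0 above, where 5942 of all 21371 named genes were below and 5487 above. Of the 12715 genes outside the EDC well above background in a channel, 4073 were below 0 on both arrays and 3554 above. The median of the list was −0.15 in dcKO against −0.01 over all named genes. It was −0.05 in Sox4 cKO and −0.13 in Sox11 cKO, near the dcKO value in the latter.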
